A study of Mus musculus with 8 samples.

Results

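Transcripts of 10 receptor chains for interferons and interleukins were followed in microglia, the resident macrophages of the brain. The chains were those of the type I interferon receptor (Ifnar1, Ifnar2), the interferon gamma receptor (Ifngr1, Ifngr2), the interleukin-10 receptor (Il10ra, Il10rb), the interleukin-6 receptor (Il6ra, Il6st), and the interleukin-4 and interleukin-21 receptors (Il4ra, Il21r). They were chosen by name from a table of 56832 genes, and all 10 were among the 14428 genes tested, those whose mean over the 8 libraries reached 10 normalized counts. The ethanol group had 4 RNA-seq libraries of microglia from male 5xFAD mice given ethanol at 3 g/kg, as a 20% solution, and the saline group had 4 libraries of microglia from male 5xFAD mice given saline. Both groups were injected intraperitoneally on 5 days a week for 4 weeks, followed by 2 weeks without injections, and the microglia were then collected by fluorescence-activated sorting. All mice carried the 5xFAD transgenes, which make mutant human amyloid precursor protein and presenilin under neuronal Thy1 elements, and the series describes the mice as young adults. No age in weeks and no group without the transgenes is among the samples, and the labels do not tie each library to a mouse of its own. The p-values thus reflect how much these libraries varied, which may partly be technical.

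These receptors have no enzyme of their own. A ligand joins 2 chains, Janus kinases bound to the chains phosphorylate them, and STAT proteins that dock there move to the nucleus and switch on target genes. In microglia, interferons are known to induce antiviral and antigen-presentation genes, interleukin-10 to dampen inflammatory genes, and interleukin-4 to raise genes of tissue repair. Chains are often shared: Il10rb also serves interleukin-22 and lambda interferons, and Il6st, or gp130, serves interleukin-6, interleukin-11, interleukin-27, oncostatin M and leukaemia inhibitory factor.

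In the RefSeq gene table for GRCm38.p6, an older build than the GRCm39 named for the deposited values, Ifnar2, Il10rb, Ifnar1 and Ifngr2 are consecutive protein-coding genes on chromosome 16, and Il4ra and Il21r are consecutive on chromosome 7. Promoters of 8 of the 10 chains were found in the RefSeq promoter table of that build. Those of both interferon gamma receptor chains, whose transcripts had the most unequal levels of any receptor pair in which both chains belong to the set, and of Il6st, the chain that varied most between libraries, are shown as the 250 bases before the transcript start. They lie on the plus strand at chr10:19591699-19591948 (Ifngr1), chr16:91546809-91547058 (Ifngr2) and chr13:112463820-112464069 (Il6st). Capitals mark the GC box GGGCGG on either strand, the motif of Sp1-type factors.
Ifngr1: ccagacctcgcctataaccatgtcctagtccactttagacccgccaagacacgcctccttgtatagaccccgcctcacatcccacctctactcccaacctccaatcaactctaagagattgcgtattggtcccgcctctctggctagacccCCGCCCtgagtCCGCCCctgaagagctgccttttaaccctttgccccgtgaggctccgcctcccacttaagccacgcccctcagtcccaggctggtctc
Ifngr2: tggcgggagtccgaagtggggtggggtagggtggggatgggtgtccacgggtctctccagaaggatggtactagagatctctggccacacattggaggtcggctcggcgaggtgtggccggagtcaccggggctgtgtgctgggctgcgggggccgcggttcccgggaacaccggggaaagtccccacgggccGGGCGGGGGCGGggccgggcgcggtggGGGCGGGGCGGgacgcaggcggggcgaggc
Il6st: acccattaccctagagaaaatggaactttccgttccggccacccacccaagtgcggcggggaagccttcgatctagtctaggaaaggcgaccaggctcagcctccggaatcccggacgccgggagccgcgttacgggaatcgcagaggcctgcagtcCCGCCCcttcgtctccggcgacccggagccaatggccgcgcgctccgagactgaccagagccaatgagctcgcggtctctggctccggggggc
The windows held 2 GC boxes for Ifngr1, 4 for Ifngr2, counting overlapping matches, and 1 for Il6st. A GC box was found in 6 of the 8 windows, against 32.7% of all 32851 windows of this length in the table. The GC box holds only G and C. These bases made up 54.0% to 74.0% of the 8 windows, against a median of 52.4% over all windows. The part of this in the count was not tested. The gamma-activated site TTCNNNGAA, which STAT dimers bind, was found in 1 of the 8 (Ifnar2), against 7.02% of all windows. Neither a pair of GAAA repeats set apart by 2 bases, the core of the response element of interferon-stimulated genes, nor the letters GAGGAAGT, a core bound by the macrophage factor PU.1, was found in any of the 8, against 2.98% and 2.44% of all windows. These are matches of letters, on both strands, and say nothing of binding in these cells.

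Microglial markers made up 5.36% to 5.63% of normalized counts in ethanol libraries and 5.08% to 5.38% in saline libraries (12 of 12 markers with a mean of at least 10). Libraries held 14271351 to 17231301 assigned reads. Markers of other cells were scarce. Astrocyte markers (9 of 10 with a mean of at least 10) summed to 0.0411% to 0.0594% in ethanol and 0.0446% to 0.0556% in saline libraries. Their share was highest in ethanol 3. Neutrophil markers (10 of 10 with a mean of at least 10) summed to 0.0168% to 0.0708% in ethanol and 0.0181% to 0.0966% in saline libraries, and border macrophage markers (9 of 10) to 0.00531% to 0.00833% in ethanol and 0.00346% to 0.0164% in saline. Monocyte markers (6 of 8) summed to 0.00226% to 0.00605% in ethanol and 0.00290% to 0.00799% in saline, and lymphocyte markers (2 of 14) to 0.00849% to 0.0111% in ethanol and 0.00899% to 0.0119% in saline, with Cd3e, Cd3d, Trac and Ms4a1 at 0 in every library. In sorted bulk samples, fewer cells of a type and less RNA per cell cannot be told apart.

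None of the 10 receptor chains passed the test for a difference between ethanol and saline microglia. With limma and Benjamini-Hochberg adjustment over all 14428 genes, 0 of 10 chains and 0% of all genes passed 0.05. Before adjustment, 1 chain of 10 lay under 0.05, Il10ra, which was lower in ethanol. The share of all tested genes under 0.05 was 3.63% (524 genes), of which 1.7% were higher and 1.93% lower in ethanol. In edgeR it was 3.43% (495 genes) and in DESeq2 3.87% (558 genes), both with Il10ra the only chain, and both called 0 genes after adjustment. The ethanol and saline values overlapped for each of the 10 chains, whereas they did not overlap for 2.32% of all tested genes. A single chain in 10 cannot be set apart from these background shares. The counts behind each value were high, from 1891 to 26562 reads per chain and library. The limma 95% intervals were narrow. None of the 10 reached a change of more than 1.26-fold in either direction.

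**Figure D1:**
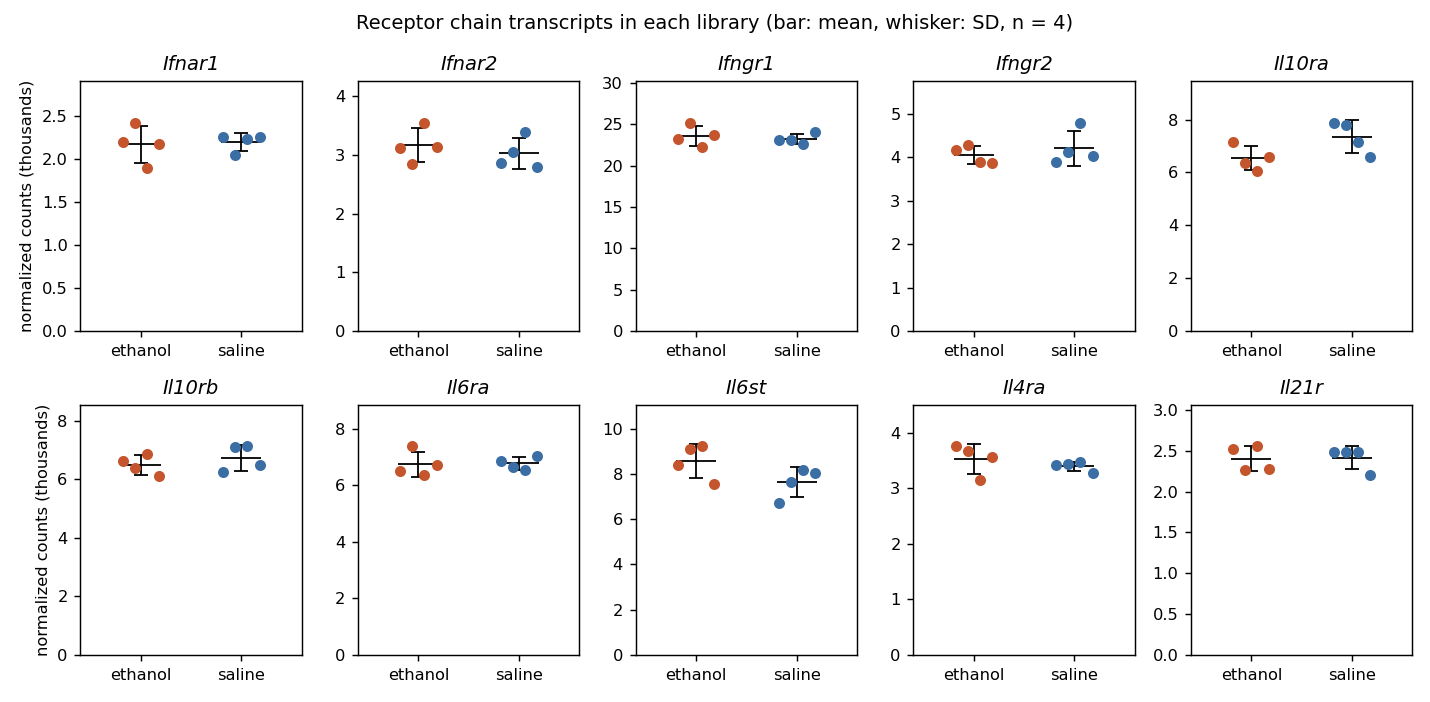
Normalized counts of the 10 receptor chains in each library, with ethanol on the left and saline on the right of each panel. Points are libraries 1 to 4 from left to right, bars are means and whiskers SDs (n = 4 each). The ethanol and saline points overlap in all 10 panels, and Il10ra and Il6st show the widest offset between means.

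Among the chains of the type I interferon receptor, Ifnar1, which carries the kinase Tyk2, had 2195, 2425, 1896 and 2182 normalized counts in ethanol 1 to 4, against 2260, 2054, 2231 and 2264 in saline 1 to 4. Ethanol libraries held both the highest and the lowest of these values. The log2 fold change was -0.02 ± 0.09 (SE), with a 95% interval of the fold from 0.866 to 1.12 (limma adjusted p = 0.997). Ifnar2, the chain that binds the ligand most tightly and carries Jak1, had 3125, 2842, 3547 and 3137 in ethanol and 2863, 3046, 3389 and 2797 in saline. Library 3 was the highest of its group in both cases, and the log2 fold change was 0.06 ± 0.09 (fold interval 0.921 to 1.19). Reads of Ifnar2 and of its neighbour Il10rb could be shared with the annotated readthrough model Gm21970, which overlaps both, and that model was at 0 in the table.

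Ifngr1, the ligand-binding chain of the interferon gamma receptor, was the most abundant of the 10 and among the steadiest. It had 23178, 25197, 22224 and 23667 normalized counts in ethanol libraries and 23066, 23086, 22636 and 24129 in saline libraries. The highest library exceeded the lowest by a factor of 1.13, the smallest such factor in the set. Its within-group SD of 0.0601 on the log2 scale was larger than that of 8.51% of the 1304 genes with a mean in the range of the 10 chains. Ifngr1 sets the upper end of that range, so this is no comparison with genes of its own level. The fold was 1.01 (0.935 to 1.10). Ifngr2, the signalling chain that carries Jak2, had 4177, 4291, 3900 and 3863 in ethanol and 3885, 4116, 4798 and 4033 in saline. Saline 3 was the highest of the 8, the others lay close together, and the fold was 0.966 (0.862 to 1.08).

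Il10ra, the chain specific to interleukin-10, had the largest difference toward lower values in ethanol. Its values were 7166, 6351, 6071 and 6588 normalized counts in ethanol 1 to 4, against 7881, 7809, 7153 and 6585 in saline 1 to 4. Saline 1 and saline 2 lay above every ethanol library, saline 3 was just below ethanol 1, and saline 4 lay within the ethanol range. The means were 6544 ± 466 in ethanol and 7357 ± 610.0 in saline (SD, n = 4 each), giving 0.890-fold (95% interval 0.798 to 0.993). The limma p was 0.039 before adjustment and 0.997 after it. Saline 1 and saline 2 also had the highest sums of border macrophage markers, 0.00943% and 0.0164% of normalized counts, and the part of these in the value was not tested. When 1 library was left out, the unadjusted p ranged from 0.0123, without saline 4, to 0.122, without saline 1, and was above 0.05 without any 1 of ethanol 2, ethanol 3, ethanol 4, saline 1 or saline 2. The log2 fold change ranged from -0.22 to -0.13. Between samples 1 and 2 alone, a division of the libraries known from earlier results, it was -0.22, and between samples 3 and 4 alone it was -0.12. Il10rb, the shared chain, had 6605, 6384, 6869 and 6092 in ethanol and 6236, 7108, 7117 and 6479 in saline. These groups interleave, and the fold was 0.964 (0.872 to 1.07).

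Il6st, the signal-transducing chain of the interleukin-6 family, had the largest difference toward higher values in ethanol. Its values were 8384, 9112, 9209 and 7562 normalized counts in ethanol 1 to 4, against 6713, 7641, 8173 and 8056 in saline 1 to 4. The highest 3 libraries were ethanol 3, ethanol 2 and ethanol 1, and the lowest was saline 1, while ethanol 4 lay below 3 of the saline libraries. Means were 8567 ± 764 in ethanol and 7646 ± 662 in saline (SD, n = 4 each). The fold was 1.12 (95% interval 0.998 to 1.26), with a limma p of 0.0545 before and 0.997 after adjustment. When 1 library was left out, the log2 fold change ranged from 0.10 without saline 1, with an unadjusted limma p of 0.213, to 0.22 without ethanol 4, with 0.013, against 0.16 with all libraries. The unadjusted limma p was also under 0.05 with TMM scaling, with a replicate block, and without saline 3 or saline 4. The same held with a term for samples 1 and 2 against 3 and 4, and between samples 1 and 2 alone. That division was known from earlier results, so these 2 settings are no separate support. In the remaining settings the unadjusted p was above 0.05. Limma gave 0.149 without ethanol 2, 0.138 without ethanol 3 and 0.72 between samples 3 and 4 alone. Over all settings, 0 to 2 of the 10 chains were under 0.05 before adjustment, and these were Il10ra and Il6st. The number of all 14428 tested genes under 0.05 also changed. It was 535 to 760 in settings with 2 chains and 427 to 571 in settings with 0, against 524 in the main fit. Saline 1 also had the highest shares of neutrophil markers (0.0966%) and monocyte markers (0.00799%), and the part of these in the value was not tested. The monocyte sum there included the single gene Chil3 at 865 normalized counts, against 60.0 to 356 in the other libraries. The log2 fold change was 0.29 between samples 1 and 2 and 0.04 between samples 3 and 4. Il6ra, the interleukin-6-binding chain, had close means in both groups, 6733 ± 445 in ethanol and 6768 ± 228 in saline. Its values were 6513, 7368, 6356 and 6695 in ethanol and 6864, 6641, 6528 and 7039 in saline, and the fold was 0.994 (0.902 to 1.09).

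Il4ra, the ligand-binding chain for interleukin-4 that also serves interleukin-13, had 3754, 3665, 3144 and 3571 normalized counts in ethanol and 3412, 3432, 3468 and 3279 in saline. Saline libraries were tightly grouped and ethanol libraries lay on both sides of them, with SDs of 270.5 in ethanol and 82.3 in saline. The fold was 1.04 (0.930 to 1.16). Il21r, the interleukin-21-binding chain, had 2525, 2265, 2553 and 2271 in ethanol and 2485, 2489, 2486 and 2206 in saline, a fold of 0.994 (0.883 to 1.12). Libraries 1 to 3 of saline were within a narrow range and saline 4 was the lowest of all. NexteraXT preparations keep no strand. Reads of the antisense models Gm42809 at Il6ra (mean 5.07 normalized counts) and Gm44876 at Il4ra (mean 3.46) could not be told apart from those of the receptors where they overlap, though both were rare.

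The library with the highest or lowest value changed from chain to chain. Ethanol 3 held 8 of the 20 extreme values (the highest and lowest library of each chain). It was the lowest library for 5 chains (Ifnar1, Ifngr1, Il10ra, Il6ra and Il4ra) and the highest for 3 (Ifnar2, Il6st and Il21r). The neighbours on chromosome 16 differed in sign there, with log2 deviations from the mean of the 8 libraries of -0.20 for Ifnar1, 0.20 for Ifnar2, 0.06 for Il10rb and -0.08 for Ifngr2. Of the 10 chains, 4 had a positive and 6 a negative log2 fold change. Their median was -0.01, and the median of all 14428 genes was -0.005. The ethanol difference had opposite signs within samples 1 and 2 and within samples 3 and 4 for 6 of the 10 chains. Il10ra, Il10rb, Ifnar2 and Il6st kept their sign. Over all tested genes, neither the share with opposite signs nor the share with an extreme value in ethanol 3 was computed. Neither count can thus be read as particular to the chains.

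**Figure D2:**
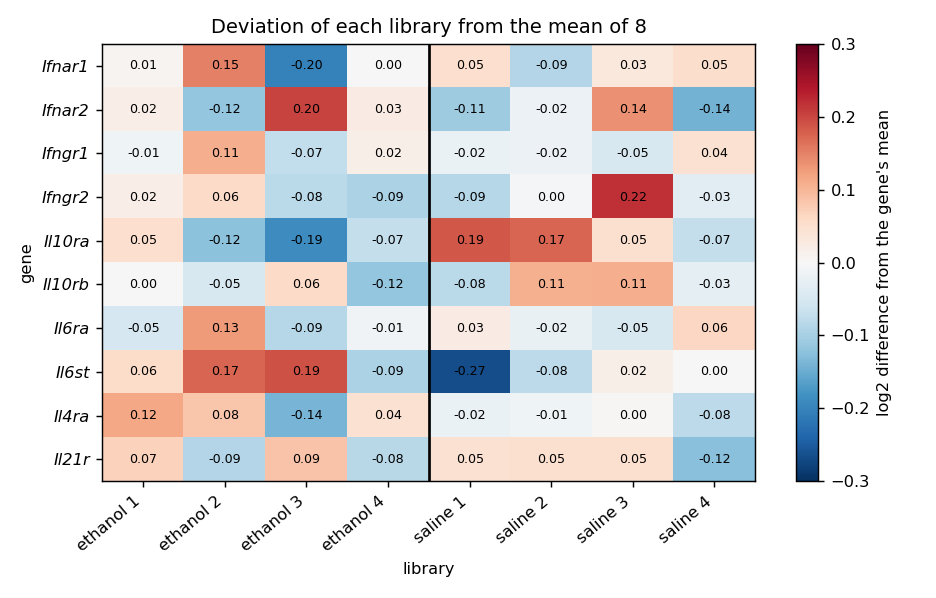
Log2 difference of each library (columns, 4 ethanol then 4 saline) from the gene's mean over the 8 libraries, for the 10 receptor chains (rows), with the value in each cell. Il10ra is 0.19 and 0.17 above its mean in saline 1 and saline 2, Il6st is 0.27 below its mean in saline 1, and ethanol 3 mixes the lowest Ifnar1 with the highest Ifnar2 value.

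Il6st had the largest SD over the 8 libraries of the 10 chains, 0.149 on the log2 scale. Its highest library exceeded its lowest by a factor of 1.37. The genes with the most similar profile among 9873 candidates, by the root mean square difference of log2 values centred on each gene's mean over the 8 libraries, were Mgat5 at 0.0462, Glg1 at 0.0537 and Mrpl9 at 0.0602. Mgat5 had 2235, 2286, 2210 and 1915 normalized counts in ethanol and 1759, 1879, 2013 and 2038 in saline. These genes were picked as the nearest of all candidates, without a reference distance, and shared control with Il6st was not tested.

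Levels between genes were compared per kilobase of transcript, and the order depended on the transcript length used. Lengths were taken from GENCODE M21, as the median or the longest protein-coding transcript. Ifngr1 was first at 11078 normalized counts per kb and Ifnar1 was last, at 790 with the median and 560 with the longest length. Il10rb was among the top 3 at 3574 per kb, and Ifnar2 was in place 5, at 2815 and 1015 per kb. Il4ra moved most, between 7059 per kb with the median length of 491 nt, which reflects short partial models, and 659 per kb with the longest length of 5256 nt. Il6st had 3153 per kb with the median and 934 with the longest length. In the order with the median length, each chain exceeded the next in 7 or 8 of the 8 libraries, apart from Il6ra (1127 per kb) over Ifngr2 (1115 per kb) in 5 and Ifngr2 over Il21r (1037 per kb) in 6. Set among the 13700 tested genes with a length, the 10 chains lay between the percentiles 82.5 and 99.3 with the median length, and between 84.7 and 99.6 with the longest.

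Ratios of 2 chains within a library do not depend on the library's size factor and were compared as a description. Ifngr1 exceeded Ifngr2 by 5.81 ± 0.248 in ethanol and 5.56 ± 0.587 in saline (SD, n = 4 each), which is 9.98 per kb over the 8 libraries with either length. The ratio of Ifnar1 to Ifnar2 was 0.697 ± 0.130 in ethanol and 0.733 ± 0.0776 in saline. Ethanol 3, at 0.535, and ethanol 2, at 0.853, marked its ends. Per kb over the 8 libraries, Ifnar1 to Ifnar2 was 0.283 with the median and 0.557 with the longest length. Il10ra and Il10rb had nearly equal normalized counts, with a ratio of 1.01 ± 0.0947 in ethanol and 1.10 ± 0.119 in saline. They were not equal per kb, at 0.619 with the median and 0.557 with the longest length. The ratio of Il6ra to Il6st was 0.777, 0.809, 0.690 and 0.885 in ethanol and 1.02, 0.869, 0.799 and 0.874 in saline. This ratio differed by -0.17 on the log2 scale, with an SD of 0.15 in each group, and by -0.23 to -0.105 when 1 library was left out. Per kb over the 8 libraries it was 0.361 with the median and 0.844 with the longest length.

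Il2rg, the common gamma chain that completes the interleukin-21 receptor and one form of the interleukin-4 receptor, was far lower in normalized counts than the 10 chains. It had 130, 233, 153 and 202 normalized counts in ethanol and 122, 122, 218 and 158 in saline, a fold of 1.16 (0.815 to 1.66). The ratio of Il21r to Il2rg was 14.3 ± 4.52 in ethanol and 16.6 ± 4.59 in saline (SD, n = 4 each), or 7.51 per kb with the median and 10.3 per kb with the longest length. Il4ra to Il2rg was 20.7 ± 5.75 in ethanol and 23.2 ± 5.98 in saline, and 6.97 per kb with the longest lengths, while the median lengths gave 50.7 per kb. Il13ra1, which completes the other form of the interleukin-4 receptor and was far more abundant, had 4869 ± 267 normalized counts in ethanol and 4924 ± 174 in saline, a fold of 0.988 (0.895 to 1.09).

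**Figure D3:**
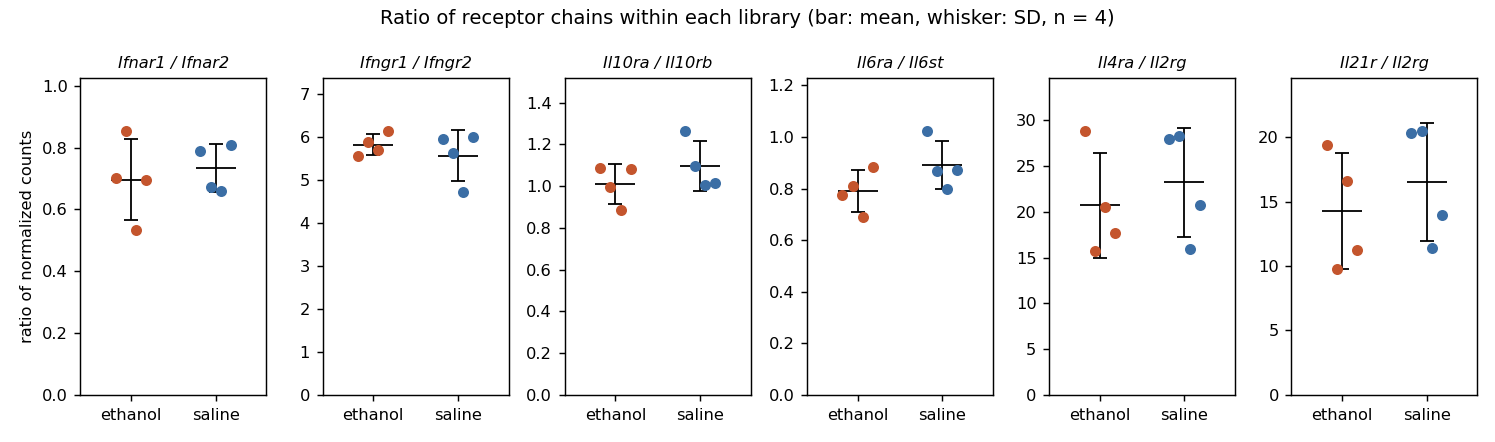
Ratio of the normalized counts of 2 chains of 1 receptor in each library, with ethanol on the left and saline on the right of each panel; points are libraries 1 to 4 from left to right, bars are means and whiskers SDs (n = 4 each). Ifngr1 exceeds Ifngr2 at least 4.72-fold in every library, and the Il4ra and Il21r ratios to Il2rg spread widely in both groups.

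The partners of Il6st for other ligands differed widely in level. Lifr, the receptor chain for leukaemia inhibitory factor, had 4554, 4752, 4093 and 4339 normalized counts in ethanol and 3555, 3994, 4191 and 4817 in saline. The fold was 1.08 (0.946 to 1.22), and the saline libraries enclosed the ethanol ones. Osmr, the oncostatin M chain, had 1 read in ethanol 3 and 0 in the other libraries, where a count of 0 allows up to 3 reads, or 2.73 to 3.26 normalized counts. Of 30 further chains of class I and class II cytokine receptors, 14 were tested, 0 were called, and 6 had a positive and 8 a negative log2 fold change (median -0.01). Csf2rb, the beta chain for granulocyte-macrophage colony-stimulating factor, was the chain whose groups did not overlap, at 1671 to 1717 in ethanol and 1463 to 1664 in saline. Its log2 fold change was 0.09 (95% interval -0.09 to 0.26, limma adjusted p = 0.997), and it was chosen after its values were seen. Groups did not overlap for 2.32% of all tested genes.

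Most ligand transcripts were absent from the reads. Of the 29 ligand genes in the table, 20 were at 0 in all 8 libraries, among them Ifng, Il10, Il13 and Il21, and 5 were tested. Ifnb1, or interferon beta, had 3.09 normalized counts in ethanol 4 and 2.04 in saline 3 and was at 0 in the other libraries. Il6 was present at 185, 211, 210 and 204 in ethanol and 216, 169, 140 and 218 in saline, a fold of 1.10 (0.835 to 1.46). Osm, or oncostatin M, was the ligand gene whose groups did not overlap, at 354 to 419 in ethanol and 270 to 351 in saline. Its log2 fold change was 0.28 (-0.02 to 0.58), with a limma p of 0.0632 before and 0.997 after adjustment, and it was likewise chosen after its values were seen. Osm and Csf2rb were the 2 of 120 tested pathway genes without overlap, against 2.32% of all tested genes. Of the 5 tested ligand genes, 4 had a positive log2 fold change, with a median of 0.14.

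Transcripts of the kinases and STAT proteins were present in both groups. Of 11 genes, 10 were tested, 0 were called, 6 had a positive and 4 a negative log2 fold change, and the median was 0.03. Jak1, the kinase used by all of these receptors, had 5447 ± 321 normalized counts in ethanol and 5553 ± 302 in saline (SD, n = 4 each), a fold of 0.981 (0.886 to 1.09). Tyk2 had 1942 ± 155 in ethanol and 1854 ± 71.7 in saline. Jak2 had 924 ± 68.2 in ethanol and 899.6 ± 46.4 in saline, and Jak3, the partner of the common gamma chain, had 876 ± 86.9 in ethanol and 877 ± 62.4 in saline. The difference of Jak3 was close to 0 and turned sign under quantile normalization (0.01), TMM scaling (0.0008) and edgeR (0.0036).

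Stat2, which carries the type I interferon signal, had 840, 917, 948 and 971 normalized counts in ethanol and 1161, 982, 1024 and 820 in saline, a fold of 0.928 (0.785 to 1.10), and Irf9, which joins it in the complex that binds response elements, had a fold of 1.05 (0.916 to 1.21). Stat3, the main factor below the interleukin-10 and interleukin-6 receptors, had 4286 ± 438 in ethanol and 4187 ± 368 in saline (fold 1.02, interval 0.900 to 1.16). Stat6, which acts below Il4ra, had 4506 ± 492 in ethanol and 4388 ± 316 in saline (fold 1.02, interval 0.904 to 1.16).

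**Figure D4:**
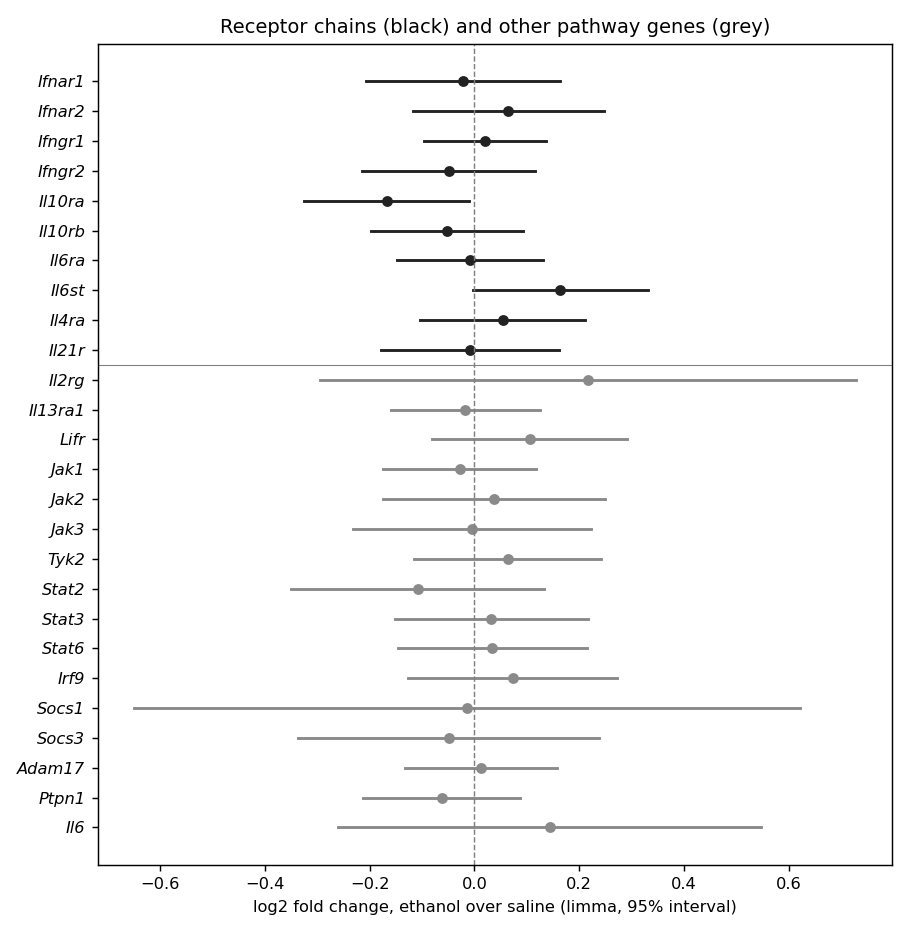
Log2 fold change of ethanol over saline with its 95% interval from limma (n = 4 libraries each), for the 10 receptor chains (black) and 16 other pathway genes (grey). The intervals of 9 of the 10 chains include 0, that of Il10ra ends at -0.01, and Socs1 and Il2rg have the widest intervals.

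Inhibitors and modifiers of these receptors likewise gave 0 calls among 20 tested of 21 genes, 9 with a positive and 11 with a negative log2 fold change (median -0.02, against -0.005 for all tested genes). Socs3, the feedback inhibitor that binds Il6st, had 576, 712, 740 and 748 normalized counts in ethanol and 725, 692, 585 and 886 in saline, a fold of 0.967 (0.792 to 1.18). Socs1, an inhibitor of interferon receptors, was low at 99.7 ± 20.6 in ethanol and 106 ± 41.1 in saline (SD, n = 4 each), and its fold of 0.990 had an interval from 0.637 to 1.54. Adam17, the protease that sheds the interleukin-6 receptor, had a fold of 1.01 (0.913 to 1.12), and the phosphatase gene Ptpn1 had 0.958 (0.863 to 1.06).

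Genes induced through the receptors gave 0 calls in each of 4 lists. For type I interferon targets, 19 of 22 tested genes had a positive and 3 a negative log2 fold change. Their median was 0.23, against -0.005 for all 14428 tested genes, of which 7046 were positive. This direction depended most on ethanol 3, the highest of the 8 libraries for 13 of the 22 genes. Ethanol 4 was the highest for 4. How often each library was the highest over all tested genes was not computed. Ethanol 3 lay above every saline library for 16 genes, ethanol 4 for 11, ethanol 1 for 3 and ethanol 2 for 1. Without ethanol 4, 16 were positive and 6 negative, with a median of 0.154. Without ethanol 3, 11 were positive and 11 negative, with a median of -0.004, and between samples 1 and 2 alone the counts were again 11 and 11, with a median of -0.001. Between samples 3 and 4 alone the median was 0.40, with 18 positive. The largest log2 fold change was that of Mx2, an antiviral GTPase gene, which had 49.97, 42.1, 98.3 and 118 normalized counts in ethanol and 47.2, 45.4, 42.8 and 8.18 in saline. Ethanol 3 and ethanol 4 were high and saline 4 was low, while the other 5 libraries lay close together. Mx2 alone in this list was under 0.05 before adjustment, with a limma p of 0.0316 before and 0.997 after it, and was chosen after its values were seen. Its log2 fold change of 1.21 became 0.63 without saline 4 and -0.01 between samples 1 and 2 alone. For interferon gamma targets, 12 of 22 were positive (median 0.02), for STAT3 targets 7 of 18 (median -0.03), and for STAT6 targets 4 of 14 (median -0.07).

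**Figure D5:**
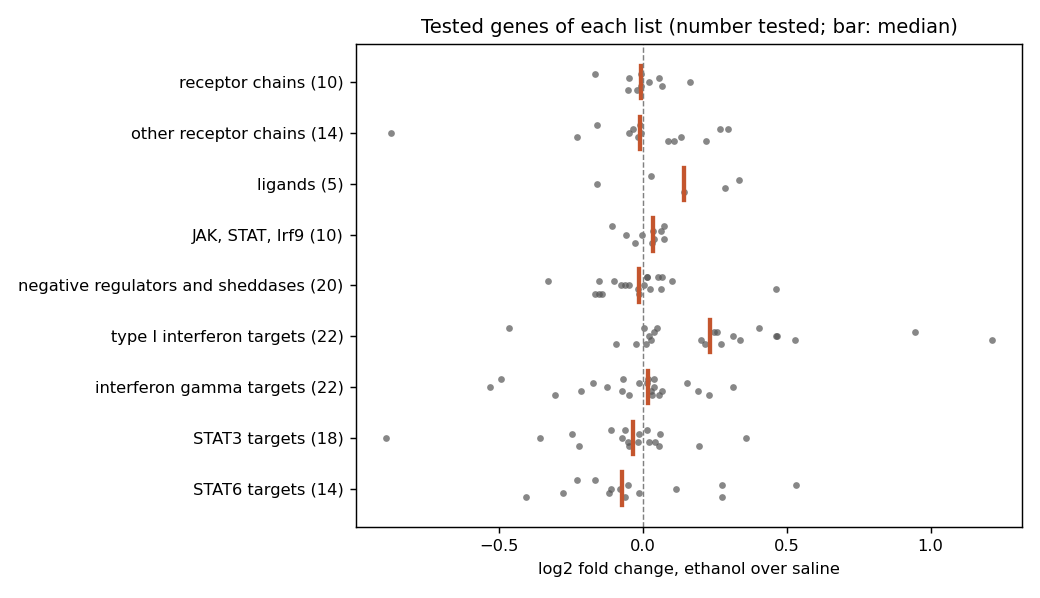
Log2 fold change of ethanol over saline for each tested gene (points) of 9 lists, with the number tested in parentheses and the median as a bar. The 10 receptor chains lie between -0.17 and 0.16, and the type I interferon targets have a median of 0.23, which is -0.004 without ethanol 3, with Mx2 at 1.21, which is 0.63 without saline 4.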

How the data were processed

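The authors deposited 1 table of DESeq2-normalized counts, a signal value per gene and library made by dividing counts by a size factor. The submitters' processing notes name GRCm39 as the build and list DESeq2, Salmon 1.5.2, featureCounts 2.0.1 of Subread and STAR 2.7.9a. Parameters and annotation are not stated in the labels. Per the labels' protocols, cDNA from 500 pg of RNA was amplified and 150 pg went into NexteraXT libraries. No molecular identifiers are mentioned, so floors cover counting error only. Each column was divided by its lowest value above 0, which returned whole numbers, to within 1e-06, for 100% of values. These reads served the count tests.

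The main test was limma 3.58.1 (intensity trend, R 4.3.3) on log2(value + 1), for genes averaging 10 or more, with group as the term, two-sided, Benjamini-Hochberg over all 14428 genes, threshold 0.05. Fold changes are on that scale. The test was tried on simulated data, in which the planted changes were all larger than those of the 10 chains. The outcome is not given here and says nothing of power at such small differences. The 10 members, the lists and the 19 pathway genes named whatever their values were chosen with earlier results of these data known. For the most variable member, the 3 genes with the nearest profile are also named, from those averaging 50 or more and carrying a gene symbol other than a model number. Alternatives were pseudocounts of 0.5 and 5, no filter, a mean of at least 50, quantile and TMM scaling, edgeR 4.0.16, DESeq2 1.42.0, a block for sample number, a factor for the number in each library's name, samples 1 and 2 against 3 and 4, and leaving out each library. Median lengths of the GENCODE basic set were added after seeing the data. Some genes are not reported here. Sequences are from RefSeq, GRCm38.p6.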

Additional observations from a re-analysis of the deposited data

Results flagged for a closer look

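In 64 groups of 4 libraries (26 named genes and 6 chain ratios, ethanol and saline each), 2 had 1 library far from the other 3, where chance flags about 1 in 20. Ifnar1 in saline 2 had 2054 normalized counts, against 2231 to 2264 in the other saline libraries. Il21r in saline 4 had 2206, against 2485 to 2489 in the other saline libraries.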

How the results depend on the processing

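Under all 21 alternatives limma, edgeR or DESeq2 called 0 genes, 0 receptor chains and 0 pathway genes. The number of genes under an unadjusted p of 0.05 lay between 376 (mean of at least 50) and 999 (no filter), and between 427 and 676 when 1 library was left out. The smallest adjusted p of any chain in any setting was 0.909. Of 609 alternative log2 fold changes of 29 genes, 553 kept their direction and none passed the threshold. Leaving out 1 library gave ranges through 0 of -0.076 to 0.042 for Ifnar1, -0.013 to 0.047 for Ifngr1, -0.086 to 0.015 for Ifngr2, -0.053 to 0.018 for Il6ra, -0.051 to 0.019 for Il21r, -0.041 to 0.022 for Il13ra1, -0.061 to 0.0079 for Jak1, -0.0005 to 0.069 for Jak2, -0.046 to 0.051 for Jak3, -0.015 to 0.10 for Stat3, -0.017 to 0.11 for Stat6, -0.29 to 0.18 for Socs1, -0.14 to 0.054 for Socs3 and -0.015 to 0.062 for Adam17. Samples 1 and 2 alone turned Ifnar1 (0.10), Ifngr2 (0.082), Il6ra (0.037), Il13ra1 (0.041), Jak3 (0.022), Socs1 (0.38) and Mx2 (-0.011). Samples 3 and 4 alone turned Ifngr1 (-0.027), Il4ra (-0.0092), Il21r (0.040), Il2rg (-0.078), Lifr (-0.092), Tyk2 (-0.041), Stat2 (0.066), Stat3 (-0.014), Socs3 (0.048) and Adam17 (-0.014). Quantile normalization (0.011), TMM scaling (0.0008) and edgeR (0.0036) turned Jak3. A factor for the number in each library's name turned Stat6 (-0.0035), Socs1 (0.077) and Socs3 (0.015). The cause of these turns was not tested. Without 1 library the log2 difference of chain ratios turned sign for Ifnar1/Ifnar2 (-0.191 to 0.034, against -0.087 with all) and Ifngr1/Ifngr2 (-0.008 to 0.106, against 0.069). It kept its sign for Il10ra/Il10rb (-0.154 to -0.044), Il6ra/Il6st (-0.23 to -0.105), Il4ra/Il2rg (-0.337 to -0.047) and Il21r/Il2rg (-0.393 to -0.062). The log2 fold change of Mx2 ranged from 0.63 to 1.46 without 1 library.

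Whether same-numbered samples were paired was not settled. Their deviations correlated at 0.014 to 0.08, and 2 of 4 ethanol samples correlated best with the saline sample of their own number. With the replicate block limma called 0 genes, with 645 at an unadjusted p under 0.05, against 524 without it. Genes with few reads, such as Il2rg and Socs1, had intervals that left room for changes past 1.5-fold, and ligands at 0 could not be compared.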
